A study of Homo sapiens with 7 samples.

Results

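SR proteins are splicing factors named for domains rich in arginine and serine, which they carry beside RNA recognition motifs. The 10 SR splicing factor genes examined here are SRSF1, SRSF2, SRSF3, SRSF4, SRSF5, SRSF6, SRSF7, SRSF9, SRSF10 and SRSF11. They were taken by symbol from the 20072 gene symbols of the deposited table, and all 10 have values in it. The libraries came from HCT116, an established human colorectal carcinoma cell line, in exponential growth and without treatment. Transcription rate (TR) was measured by GRO-seq, which reads RNA extended by engaged polymerases in isolated nuclei, in 2 libraries. Steady-state mRNA abundance (RA) was measured by RNA-seq of purified mRNA in 3 libraries. Translation activity (TA) was measured in 2 libraries of purified mRNA from polysome fractions, after a short exposure of the cells to cycloheximide, an inhibitor of translation elongation. The question put to these genes is how the level of each changes from transcription to mRNA and from mRNA to polysomes.

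SR proteins bind exonic enhancers, help the spliceosome to recognize splice sites and act in mRNA export and translation. Their genes are known for feedback on their own splicing. The pre-mRNA can include a poison exon, which brings an early stop codon and marks the mRNA for nonsense-mediated decay, or can keep an intron and stay in the nucleus. The reference annotation (GENCODE release 44 on GRCh37, which shares its coordinates with the hg19 build of the files) lists at least 1 nonsense-mediated decay transcript for all 10 genes. A retained intron transcript is listed for 9 of them, SRSF6 being the exception. In 6 genes an internal exon of a decay transcript overlaps no exon of a protein-coding transcript and holds the stop codon of the decay transcript. The longest such exon is 456 bases in SRSF3 (chr6:36567598-36568053, + strand), 449 in SRSF7 (chr2:38976040-38976488, - strand) and 268 in SRSF6 (chr20:42087793-42088060, + strand). It is 175 bases in SRSF4 (chr1:29492402-29492576, - strand), 117 in SRSF11 (chr1:70697542-70697658, + strand) and 90 in SRSF9 (chr12:120902536-120902625, - strand).

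The coding bases that lead into the early stop are shown for these 6 exons, because they are what makes each one a poison exon. The sequences are GRCh37 genome sequence in the sense of the gene, 5′ to 3′, within the exon, and end with the stop codon in capitals.
SRSF3: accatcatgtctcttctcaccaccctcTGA
SRSF4: ggagaggttcggttcttacaaggaaaaTGA
SRSF6: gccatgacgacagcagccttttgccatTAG
SRSF7: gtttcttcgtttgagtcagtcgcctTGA
SRSF9: aaaactatTAG
SRSF11: gttgttcataaaacagcttttgaaagtTGA
In SRSF9 only 8 bases of the exon precede the stop, against 149 bases in SRSF6. The 4 other genes have no exon of this kind in the annotation. Pseudogenes, 11 in all, are annotated for 6 of the 10 genes, 5 of them for SRSF3, and reads could be shared with these copies. Each deposited value sums the reads over all exons that the authors counted for a gene, so the level of a poison exon or a retained intron was not measured here.

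The values are RPKM, which are reads scaled by exon length and by the mapped reads of the library. Because each value stands for a whole number of reads, exon lengths and library sizes could be worked out. Library sizes were 3391897 and 5629982 reads for TR, between 20299018 and 22532134 for RA, and 22421062 and 30805391 for TA. Reads carry no molecular identifiers, so read numbers speak of counting error only. The 6 epithelial marker genes had mean values between 24.1 and 617 RPKM in TR and between 47.1 and 977 RPKM in RA. Of 3 intestinal markers, CDX2 was at 8.96 RPKM in RA, while VIL1 and CDH17 were at 0.0118 and 0.105 RPKM. The 7 markers of leukocytes, endothelium, fibroblasts and hepatocytes summed to between 0.435 and 0.506 RPKM in the RA libraries, and none had a mean of 1 RPKM or more there. Each parameter was read by another assay, so a difference between parameters in the cells and a difference between the assays cannot be told apart. RPKM are shares of a library, and fewer cells with an mRNA cannot be told apart from less of it per cell.

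In TR the SR splicing factor genes stood high, and their levels were graded. SRSF2 was first with 206 RPKM, followed by SRSF1 (149 RPKM), SRSF6 (133 RPKM), SRSF3 (99.7 RPKM), SRSF7 (92.2 RPKM) and SRSF5 (85.3 RPKM). SRSF11 (50.8 RPKM), SRSF9 (40.9 RPKM) and SRSF4 (39.1 RPKM) came next, and SRSF10 was far below at 1.96 RPKM. The median over the 14305 tested genes was 14.2 RPKM, and 9 of the 10 genes lay between the percentiles 86.0 and 99.2 of them. Of the 9 neighbouring pairs in this order, 4 had ranges that overlapped between libraries. These were SRSF3 with SRSF7, SRSF7 with SRSF5, SRSF11 with SRSF9 and SRSF9 with SRSF4.

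In RA the levels of neighbours could mostly not be told apart. The means of the same 9 genes lay between 42.7 RPKM for SRSF7 and 94.5 RPKM for SRSF9, and 8 of 9 neighbouring pairs overlapped. The exception was SRSF7 against SRSF10, which had 0.418 RPKM. In TA the order was led by SRSF9 (97.3 RPKM), SRSF6 (83.2 RPKM) and SRSF4 (72.4 RPKM), and 7 of 9 neighbouring pairs overlapped. SRSF2, first in TR, was ninth in TA with 24.5 RPKM. SRSF9 went the other way, from eighth in TR to the highest mean in RA and TA.

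**Figure D1:**
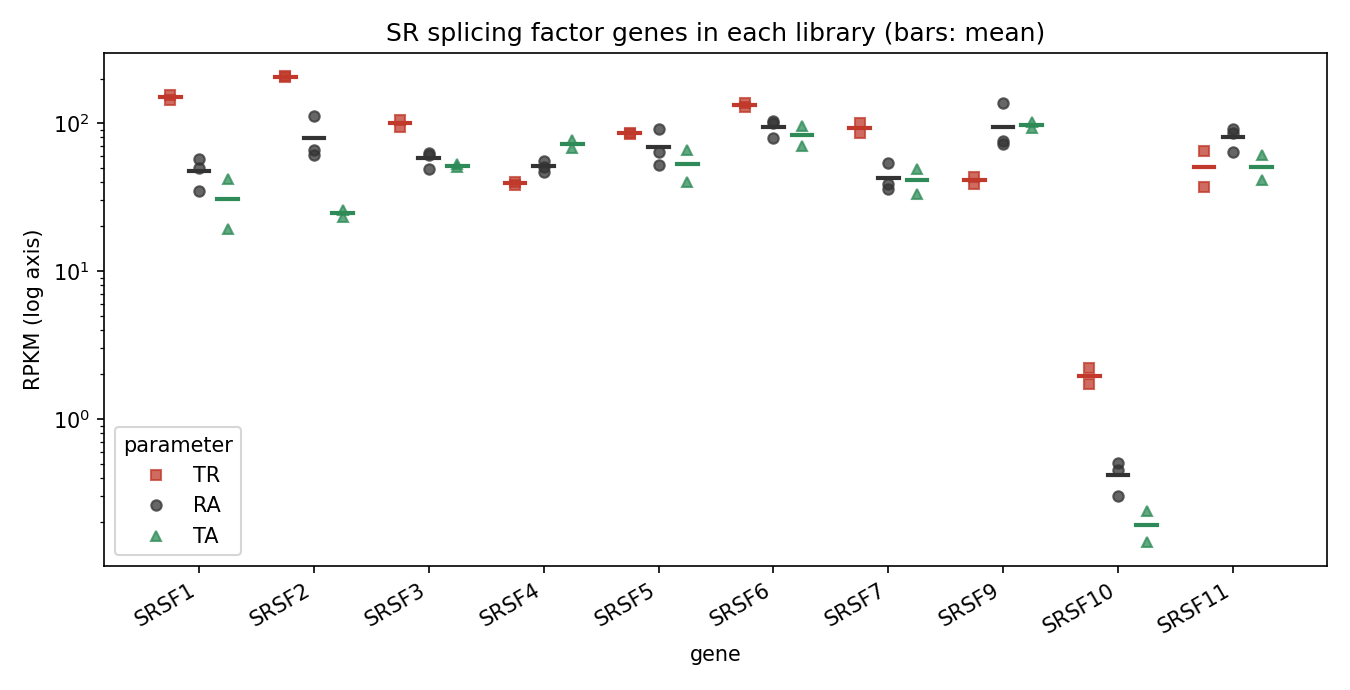
RPKM of each of the 10 SR splicing factor genes (x axis) in each library on a log axis (y axis), with squares for the 2 TR, circles for the 3 RA and triangles for the 2 TA libraries and a bar at the mean. SRSF2 drops from 206 RPKM in TR to 24.5 RPKM in TA, SRSF9 climbs from 40.9 to 97.3 RPKM, and SRSF10 is the lowest gene in every library.

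For RA against TR, limma was used on log2(RPKM + 0.1), and genes with an adjusted p under 0.05 were called. Of the 10 genes 5 were lower in RA than in TR, 1 was higher and 4 were not called. Among all tested genes 48.0% were lower and 19.2% were higher, which is near the counts in this family. These shares depend on the filter on low values, because genes that passed it through TR alone had to be lower in RA. The median log2 ratio of the 10 genes was -0.65, against -0.58 over all tested genes. The family did not move as a block, because its members ran from -2.01 to 1.15, with an SD of 1.05 between members and a median standard error of 0.27. SRSF10, the member at -2.01, passed the filter on low values through TR alone and had to be lower in RA, and without it 4 of 9 genes were lower. The other 9 genes ran from -1.685 for SRSF1 to 1.15 for SRSF9, with an SD of 0.98. With at least 1 RPKM required in each parameter, the median ratio was -0.51 for these 9 genes and -0.17 over the 10825 genes tested. When each library was centred on its median, the median ratio over all genes moved from -0.58 to 0.09, and 35.4% of all genes were higher and 33.7% lower. With that scaling 3 of the 10 genes were higher, which were SRSF4, SRSF9 and SRSF11, and 3 lower, which were SRSF1, SRSF2 and SRSF10.

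For TA against RA, 1 of the 10 genes was lower (SRSF2), 1 was higher (SRSF4) and 8 were not called. Of all tested genes 29.2% were lower and 6.66% higher. The median log2 ratio of the family was -0.29, against -0.37 over all genes, with a range from -1.63 to 0.51. Centring the libraries left 1 gene higher and 1 lower in the family, while 19.0% of all genes were then higher and 9.81% lower. For TA against TR, over both steps, 6 of the 10 genes were lower and 2 were higher, beside 57.5% and 17.0% of all genes. SRSF10, which passed the filter through TR alone, had to be lower here too, and without it 5 of 9 genes were lower. With centred libraries the counts of the 10 genes became 3 lower, SRSF10 among them, and 3 higher, beside 35.3% and 38.0%.

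**Figure D2:**
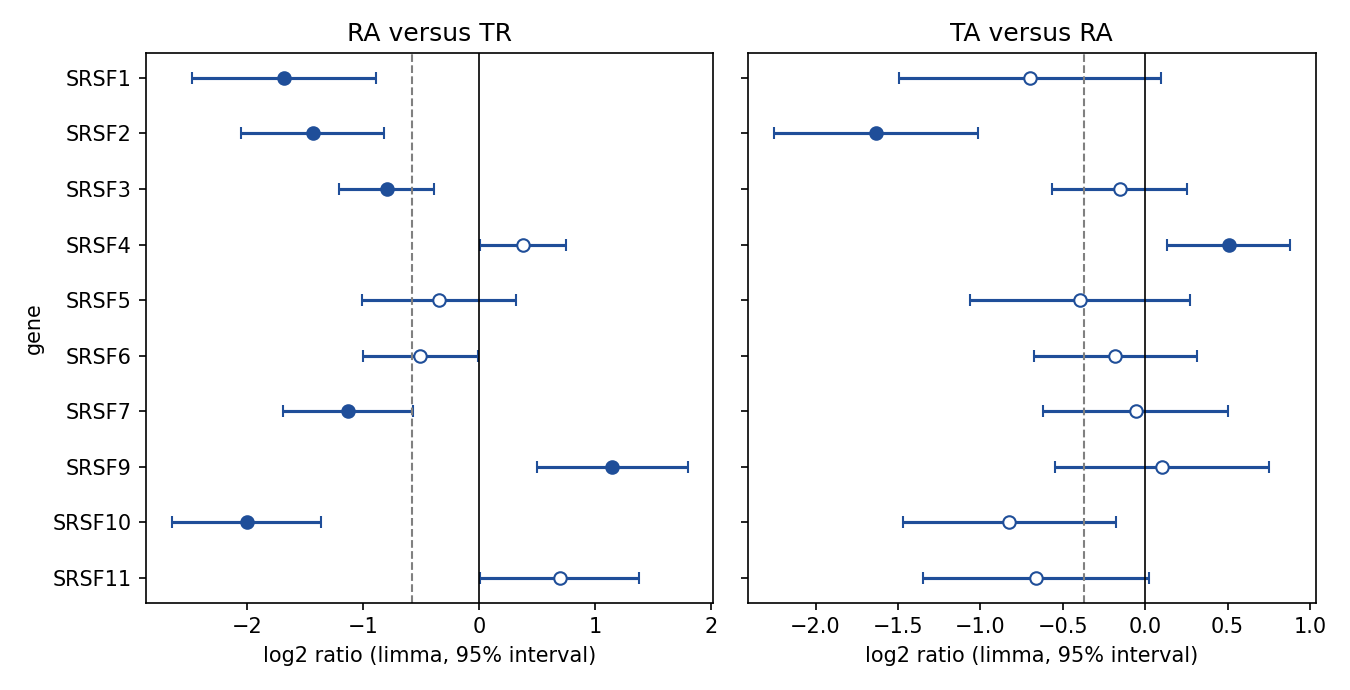
Log2 ratios of RA to TR (left) and of TA to RA (right) from limma for each SR splicing factor gene, with 95% intervals. Filled points had an adjusted p under 0.05, the solid line is 0 and the dashed line is the median of all tested genes (-0.58 and -0.37). SRSF1, SRSF2, SRSF3, SRSF7 and SRSF10 are filled below 0 on the left and SRSF9 above it, and SRSF2 alone is filled below 0 on the right.

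SRSF2, also known as SC35, is an SR protein that binds exonic enhancers. The gene lies on chr17:74730197-74733415 on the - strand. TR was 207 and 205 RPKM, from 2081 and 3427 reads. RA was 111, 65.6 and 60.5 RPKM, and TA was 23.1 and 25.9 RPKM, from 2112 and 1718 reads. The TR libraries nearly coincided, every RA library was below both, and every TA library was below every RA library. The log2 ratio of RA to TR was -1.44 (standard error 0.27, adjusted p = 0.0017), a 2.71-fold decrease. From RA to TA it was -1.63 (standard error 0.27, adjusted p = 0.0048), a 3.10-fold decrease, and 3.93% of all tested genes had a lower value. Over both steps SRSF2 fell 8.40-fold. It was called lower in each of the 3 comparisons in all 15 refits with another setting or with 1 library left out. RA replicate 1 was the highest of the RA libraries for SRSF2, and without it the ratio of RA to TR was -1.71.

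Whether the way SRSF2 was counted bears on these values was not tested. The exon length behind its RPKM was 2963 bases, against 1888 bases in the 3 exons of the canonical transcript and 3219 bases from end to end of the gene. Sequence that is intron in the canonical transcript was thus counted as exon. MFSD11, a gene on the other strand, overlaps 568 bases, or 30.1%, of the canonical exons. The counting is not stated to use strand, so reads there cannot be given to either gene. MFSD11 was at 32.4 RPKM in TR, 6.56 RPKM in RA and 5.66 RPKM in TA, and its part in the values of SRSF2 was not tested.

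SRSF1, the first SR protein to be characterized, carries a pair of RNA recognition motifs, shuttles between nucleus and cytoplasm and acts as an oncoprotein when in excess. It lies on chr17:56078280-56084707 on the - strand. Annotated genes that are absent from the deposited table overlap 1690 bases, or 31.6%, of the canonical exons of SRSF1. Their part in its values was not tested. TR was 155 and 143 RPKM, while RA was 57.4, 49.9 and 34.7 RPKM. TA was 42.1 and 19.3 RPKM. Both TR libraries were far above all others, and the TA libraries differed from each other more than the means of RA and TA did. The log2 ratio of RA to TR was -1.68 (standard error 0.34, adjusted p = 0.0027), a 3.22-fold decrease that was called in all 15 refits. For TA to RA the log2 ratio was -0.70 (standard error 0.34, adjusted p = 0.15), with a 95% interval from -1.49 to 0.09. The size of that step rested on single TA libraries, since without TA replicate 1 it was -1.26 (adjusted p = 0.042) and without TA replicate 2 it was -0.14.

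SRSF9 is built like SRSF1 but has a short arginine- and serine-rich tail. It lies on chr12:120899475-120933749 on the - strand. TR was 43.3 and 38.5 RPKM, from 171 and 252 reads, the lowest read numbers in TR after SRSF10. RA was 136, 71.9 and 76.0 RPKM, and TA was 93.0 and 102 RPKM. Every RA and TA library was above both TR libraries, with RA replicate 1 far above the other two. Without RA replicate 1 the log2 ratio of RA to TR was 0.85. The log2 ratio of RA to TR was 1.15 (standard error 0.28, adjusted p = 0.0071), a 2.21-fold increase, and that of TA to RA was 0.10 (standard error 0.28, adjusted p = 0.81). The call for RA to TR was kept in 13 of 15 refits and was lost without TR replicate 1 (adjusted p = 0.052) and without TR replicate 2 (adjusted p = 0.084). GATC, on the other strand, overlaps 491 bases, or 42.6%, of the canonical exons of SRSF9. GATC was at 42.2 RPKM in TR and 14.7 RPKM in RA, so it was lower where SRSF9 was higher, and its part in the values of SRSF9 was not tested.

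The ratio of SRSF2 to SRSF9 within a library shows the crossing of the pair without any scaling between libraries. In the TR libraries SRSF2 had 4.78 and 5.34 times the RPKM of SRSF9. In RA it had 0.820, 0.913 and 0.796 times, and in TA 0.249 and 0.255 times. The 3 parameters did not overlap. SRSF2 had the lowest and SRSF9 the highest ratio of TA to TR in the family, so this pair describes values already seen and is no further test. The ratio of SRSF2 to SRSF4 did not overlap between parameters either. For SRSF1 to SRSF9 it was 3.58 and 3.72 in TR, but RA (0.423, 0.695 and 0.457) and TA (0.453 and 0.190) overlapped.

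SRSF4, SRSF5 and SRSF6 share an extra RNA recognition motif with SRSF1, and SRSF4 and SRSF6 have long arginine- and serine-rich domains. SRSF4 lies on chr1:29474255-29508412 on the - strand, and its libraries were higher at each step. TR was 40.1 and 38.2 RPKM, RA 55.0, 47.0 and 50.8 RPKM, and TA 67.4 and 77.3 RPKM, with no overlap between the parameters. The log2 ratio of RA to TR was 0.38 (standard error 0.16, adjusted p = 0.068), and that of TA to RA was 0.51 (standard error 0.16, adjusted p = 0.042). The call for TA to RA was kept in 7 of 15 refits, and leaving out any library but RA replicate 1 ended it, with an adjusted p between 0.052 and 0.19. Over both steps the log2 ratio of TA to TR was 0.88 (standard error 0.18, adjusted p = 0.0020), which was called in all 15 refits.

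SRSF5 (chr14:70193617-70238722, + strand) and SRSF6 (chr20:42086533-42094686, + strand) had RA to TR ratios at the percentiles 56.4 and 52.0 of all tested genes. TR of SRSF5 was 86.1 and 84.6 RPKM, RA was 63.3, 91.2 and 52.3 RPKM, and TA was 65.3 and 39.9 RPKM. The highest RA library of SRSF5 was above both TR libraries, and neither ratio was called, with 95% intervals from -1.01 to 0.32 for RA to TR and from -1.06 to 0.27 for TA to RA. TR of SRSF6 was 137 and 129 RPKM, RA was 103, 99.8 and 78.7 RPKM, and TA was 95.9 and 70.5 RPKM. Every RA library of SRSF6 was below both TR libraries, but the log2 ratio of -0.51 was not called (standard error 0.21, adjusted p = 0.066). Both RA to TR ratios were above 0 with centred libraries, at 0.33 for SRSF5 and 0.17 for SRSF6, and were not called there either. From TR to TA, SRSF6 had a log2 ratio of -0.69 (adjusted p = 0.027), and the call was kept in 10 of 15 refits. It was lost with both other scalings (0.49 with centred libraries), without TR replicate 1 (adjusted p = 0.10), without TR replicate 2 (adjusted p = 0.077) and without TA replicate 2 (adjusted p = 0.17).

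SRSF3, the smallest SR protein, and SRSF7, which has a zinc knuckle, both serve as adaptors for mRNA export. SRSF3 lies on chr6:36562130-36573377 on the + strand, and SRSF7 on chr2:38970741-38978636 on the - strand. TR of SRSF3 was 94.5 and 105 RPKM, RA was 60.6, 63.2 and 49.1 RPKM, and TA was 52.9 and 50.1 RPKM. TR of SRSF7 was 85.0 and 99.3 RPKM, RA was 53.5, 35.9 and 38.7 RPKM, and TA was 33.4 and 48.8 RPKM. In both genes every RA and TA library was below both TR libraries, and RA and TA overlapped. RA to TR had a log2 ratio of -0.80 for SRSF3 (standard error 0.18, adjusted p = 0.0043) and -1.13 for SRSF7 (standard error 0.24, adjusted p = 0.0036). With centred libraries neither was called, at -0.12 (adjusted p = 0.58) and -0.45 (adjusted p = 0.11). The 95% interval for TA to RA was -0.56 to 0.26 for SRSF3 and -0.62 to 0.50 for SRSF7. The call for SRSF7 was also lost without TR replicate 2 (adjusted p = 0.055).

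SRSF11 is an atypical, largely nuclear member of the family on chr1:70671365-70718735, + strand. TR was 64.6 and 36.9 RPKM, RA was 86.0, 90.6 and 63.3 RPKM, and TA was 60.6 and 41.1 RPKM. Its TR libraries differed more than those of any other of the 10 genes, and the lowest RA library lay just under the higher TR library. RA to TR had a log2 ratio of 0.69 (standard error 0.30, adjusted p = 0.070), and with centred libraries it was 1.37 (adjusted p = 0.0041). Without TR replicate 1 the adjusted p was 0.038, without TR replicate 2 the ratio was 0.29 (adjusted p = 0.49), and with replicate numbers as a block it was 0.85 (adjusted p = 0.047). Every TA library was below every RA library, at a log2 ratio of -0.66 (standard error 0.30, adjusted p = 0.12), which was -0.94 without TA replicate 1 and -0.38 without TA replicate 2. Neither step passed the test with the values as deposited.

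SRSF10, a splicing repressor when dephosphorylated, lies on chr1:24290837-24307417 on the - strand and was the exception in level. TR was 1.72 and 2.21 RPKM, from 48 and 102 reads. RA was 0.450, 0.503 and 0.302 RPKM from 51 to 93 reads, and TA was 0.237 and 0.147 RPKM from 60 and 27 reads. Its percentile among the tested genes was 6.19 in TR, 13.2 in RA and 13.8 in TA, while the lowest percentile of the other 9 genes in any parameter was 77.7. The log2 ratio of RA to TR was -2.01, given as a description because the gene was tested only through its TR level and had to be lower in RA. That of TA to RA was -0.82 (standard error 0.28, adjusted p = 0.051), and the parameters did not overlap. The pseudocount of 0.1 understates these ratios, and those of the arithmetic means were -2.23 and -1.12. The exon length behind the RPKM was 8213 bases. Which exons and which reads the authors counted for this gene is not stated, so the low level is that of the listed value.

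The share of each gene in the summed RPKM of the 10 genes does not depend on how libraries are scaled. The sum was 898 ± 23.0 RPKM in TR (SD, n = 2), 615 ± 111 RPKM in RA (SD, n = 3) and 504 ± 41.9 RPKM in TA (SD, n = 2). SRSF2 made up 22.6% and 23.3% of it in TR, between 10.7% and 15.3% in RA, and 4.33% and 5.45% in TA. SRSF1 went from 17.0% and 16.3% in TR to between 6.88% and 8.11% in RA. SRSF9 made up 4.74% and 4.36% in TR, between 11.7% and 18.7% in RA, and 17.4% and 21.4% in TA. SRSF4 went from 4.38% and 4.33% to between 7.57% and 10.1%, and then to 12.6% and 16.3%. SRSF6 stayed between 14.2% and 18.0% in all 7 libraries. A sum weighted by RPKM follows the high genes, so the levels were also taken on the log2 scale relative to the mean of the 10 genes in the same library.

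On that scale SRSF4, SRSF9 and SRSF11 were higher in all RA than in all TR libraries, and SRSF1, SRSF2, SRSF3, SRSF7 and SRSF10 were lower. That is 3 and 5 of 10 genes, beside 36.2% and 39.5% of all tested genes measured in the same way. SRSF10 passed the filter through TR alone, so its lower level in RA, with its shift and exact p, is a description and no test. The shares of all tested genes include other genes that passed in that way. The shift was 1.71 for SRSF9, 1.26 for SRSF11 and 0.95 for SRSF4, and it was -1.44 for SRSF10, -1.12 for SRSF1 and -0.87 for SRSF2. From RA to TA, SRSF3, SRSF4 and SRSF6 were higher and SRSF2 and SRSF10 lower without overlap, beside 27.4% and 20.3% of all tested genes. The reference includes SRSF10, and relative to the mean of the other 9 genes SRSF6 overlapped in this step, SRSF3 and SRSF4 were higher, and SRSF2 and SRSF11 were lower. From TR to RA, SRSF6 was then also lower without overlap (shift of -0.097, exact two-sided permutation p = 0.2). Shares of all tested genes were not measured relative to these 9 genes. The members named for that reference are therefore a description only. Relative to the mean of all 10 genes, the shift from RA to TA was -1.23 for SRSF2 and 0.91 for SRSF4. With 2 against 3 libraries the exact two-sided permutation test cannot give a p below 0.1, and SRSF1, SRSF2, SRSF4, SRSF7, SRSF9, SRSF10 and SRSF11 reached 0.1 from TR to RA. In that step SRSF3 had an exact p of 0.2. The groups did not overlap, but this test cannot call these shifts significant.

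**Figure D3:**
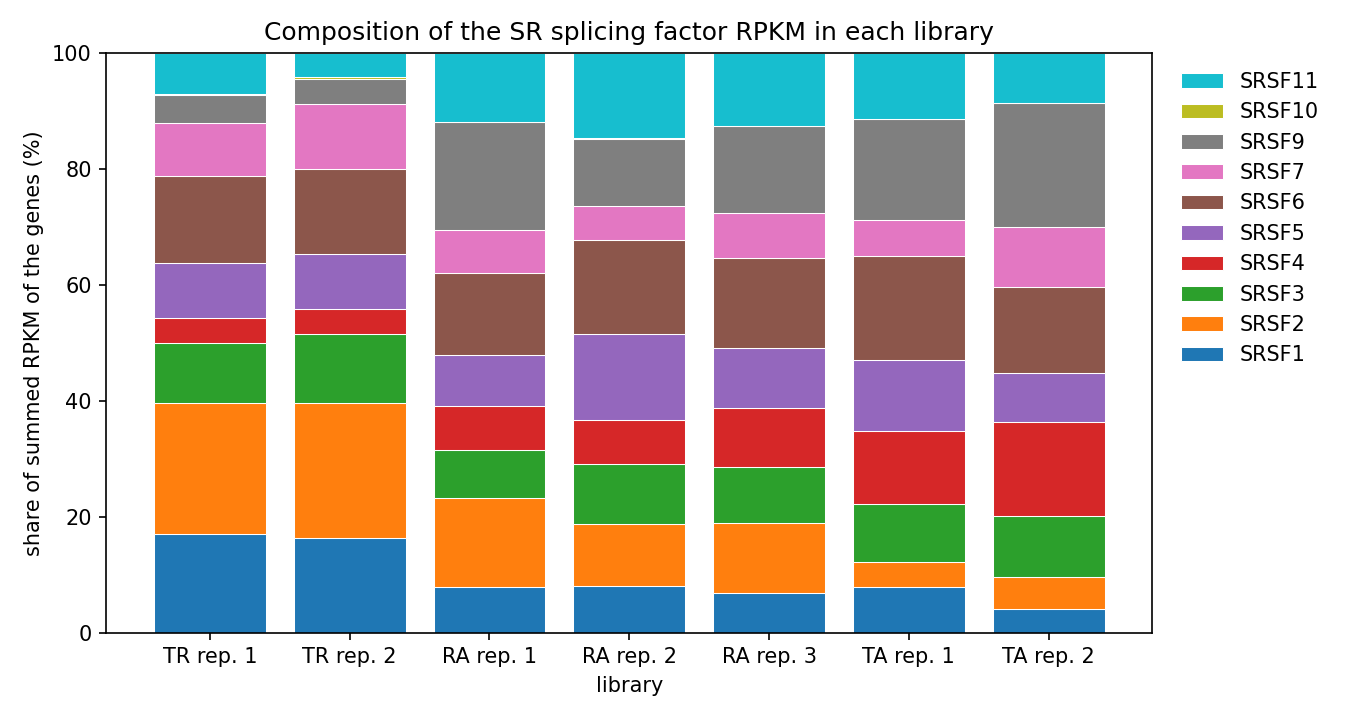
Share of each SR splicing factor gene in the summed RPKM of the 10 genes (y axis, percent) in each of the 7 libraries (x axis), as stacked bars. SRSF2 and SRSF1 take up much of the TR bars (22.6% and 17.0% in TR replicate 1), and SRSF9 and SRSF4 widen from TR (4.74% and 4.38%) to TA (17.4% and 12.6% in TA replicate 1).

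Likeness between genes was measured by the Euclidean distance over the 7 libraries between log2(RPKM + 0.1) values, each minus the mean of the gene. Within the family SRSF3 and SRSF6 were nearest (0.46), followed by SRSF5 and SRSF6 (0.53), and SRSF9 and SRSF10 were farthest apart (4.43). Among the genes outside the family, RBBP7 (0.19), PSMD2 (0.26) and AHSA1 (0.29) were the nearest to SRSF9, which had the highest ratio of RA to TR. The median distance from SRSF9 was 2.75. Nearest to SRSF10, which had the lowest ratio, were MAP4K1 (0.30), TMEM86B (0.33) and ZKSCAN3 (0.35), against a median of 2.69. For SRSF2, a gene chosen for this after its values were seen, they were PAPOLB (0.31), TBC1D16 (0.44) and CARHSP1 (0.45), against a median of 2.86.

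**Figure D4:**
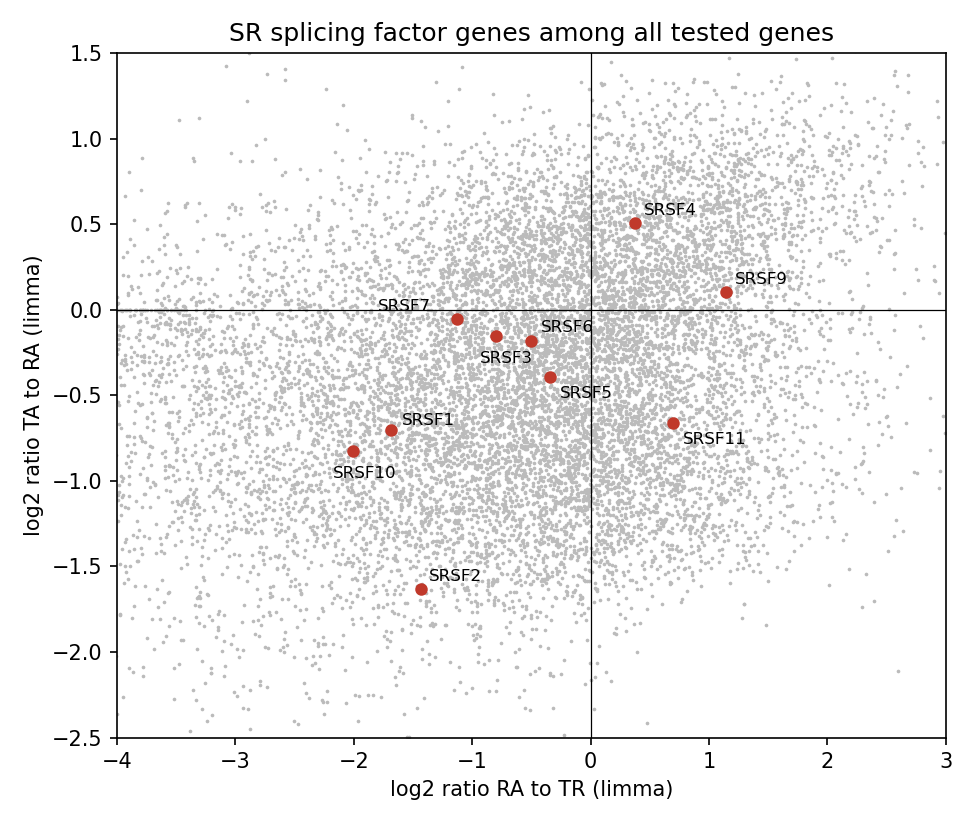
Log2 ratio of TA to RA (y axis) against log2 ratio of RA to TR (x axis), both from limma, for the 10 SR splicing factor genes (red) and all other tested genes (grey). A further 1618 of the 14305 genes fall outside the window. SRSF2 lies low in both ratios (-1.44 and -1.63), SRSF9 is farthest to the right (1.15), and SRSF3, SRSF5, SRSF6 and SRSF7 sit close together near the middle.

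The partners of the SR proteins were described from 4 lists. Of 16 other SR-family and SR-related splicing proteins, 8 were lower in RA than in TR and none was higher, with a median log2 ratio of -0.58, beside 48.0% and 19.2% of all tested genes. With centred libraries, counted for the lists after their values were seen, 4 were lower and 5 higher, so the split did not hold. The lowest was SRSF12, which passed the filter through TR alone and had to be lower, and without it 7 of 15 were lower. SRSF12 had 12 and 22 reads in TR and at most 1 read in any RA or TA library, and the highest ratio was that of TRA2A, at 0.08 (adjusted p = 0.74) and at 0.75 (adjusted p = 0.013) with centred libraries. In polysomes relative to RA 1 gene was lower and none was higher, beside 29.2% and 6.66% of all tested genes, with a median of -0.32, and with centred libraries 0 were lower and 2 higher. The lower gene was SON, a large speckle protein, at -0.66 (adjusted p = 0.026), named after its value was seen, and at -0.16 (adjusted p = 0.54) with centred libraries. The lowest and highest ratios, neither called, were those of LUC7L3, a U1-associated protein, at -0.81 (adjusted p = 0.19) and ACIN1, a component of splicing-associated complexes, at 0.42 (adjusted p = 0.17).

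SR proteins are phosphorylated by SRPK kinases in the cytoplasm and CLK kinases in the nucleus, dephosphorylated by protein phosphatase 1 and imported by transportin 3. Of the 11 genes in this list, 6 were lower and 1 was higher in RA than in TR, with a median of -0.43, beside 48.0% and 19.2% of all tested genes. With centred libraries 2 were lower and 5 higher. PPP1CA, the catalytic subunit of protein phosphatase 1, was highest at 1.13 (adjusted p = 0.0057). SRPK3, a muscle kinase, was lowest at -5.29, with 166 and 297 reads in TR and 16 to 31 reads in RA. It passed the filter through TR alone and had to be lower, and without it 5 of 10 genes were lower. In TA relative to RA 2 genes were lower and 1 higher, beside 29.2% and 6.66% of all tested genes, and with centred libraries 0 were lower and 5 higher. SRPK3 was lowest at -1.34 (adjusted p = 0.012, and 0.075 with centred libraries), and CLK3 was highest, at 0.81 (adjusted p = 0.0066). SRPK3 had only 13 and 5 reads in TA, at 0.211 and 0.111 RPKM, near the pseudocount of 0.1. Without SRPK3, 1 of 10 genes was lower in TA than in RA. CLK3 was at 29.7, 31.9 and 29.7 RPKM in RA and 54.6 and 52.1 RPKM in TA.

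Of 15 genes of nonsense-mediated decay and the exon junction complex, 7 were lower and 4 higher in RA than in TR, with a median of -0.57, beside 48.0% and 19.2% of all tested genes. With centred libraries 1 was lower and 4 higher. The ends were the paralogs MAGOHB at -2.21 (adjusted p = 6.9e-05) and MAGOH at 1.62 (adjusted p = 0.0021). Their proteins are core subunits of the exon junction complex and nearly identical. Whether reads were shared between the genes was not tested. In the step to polysomes 4 were lower and 2 higher, with a median of -0.06, beside 29.2% and 6.66% of all tested genes, and with centred libraries 2 were lower and 5 higher. SMG5, which recruits decay enzymes to phosphorylated UPF1, was lowest at -1.90 (adjusted p = 0.0025), with 26.7, 28.5 and 23.1 RPKM in RA and 8.30 and 5.71 RPKM in TA. MAGOH was highest at 1.08 (adjusted p = 0.030).

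The last list held 7 genes of splice-site recognition and mRNA export. From TR to RA 2 were lower and 1 higher, and from RA to TA 1 was lower and 1 higher, with medians of -0.15 and 0.30. The shares of all tested genes were 48.0% and 19.2% for the first step and 29.2% and 6.66% for the other. With centred libraries 0 were lower in either step, 3 were higher in RA and 2 in TA. U2AF1, which binds the 3′ splice site, was highest in both steps, at 0.99 (adjusted p = 0.010) and 0.83 (adjusted p = 0.042). ZRSR2, its relative for minor introns, was lowest from TR to RA at -1.26 (adjusted p = 0.0039, and 0.10 with centred libraries). NXT1, an mRNA export factor, was lowest from RA to TA at -0.92 (adjusted p = 0.038, and 0.27 with centred libraries), with 7.41 and 15.2 RPKM in TA and between 18.7 and 22.3 RPKM in RA.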

How the data were processed

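HCT116 cells were profiled by GRO-seq (2 libraries), RNA-seq (3 libraries) and polysome profiling (2 libraries). The authors aligned reads to hg19 and deposited 1 table of RPKM values per gene, and the tools named in their processing notes are CASAVA, TopHat and HTSeq. The gene annotation, the counting mode and the use of strand are not given in the sources used here. All deposited RPKM values above 0 were whole multiples of 1 read (tolerance 0.0001 reads), from which library sizes, exon lengths and reads were worked out, and depth limits SRSF9 and SRSF10 in TR most.

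A gene was tested if its mean reached 1 RPKM in any parameter, which held for 14305 of 20072. Values as log2(RPKM + 0.1), which understates changes of low genes, were fitted over all 7 libraries with limma 3.58.1 in R 4.3.3 (trended prior variance, 1 mean per parameter). P-values were adjusted by Benjamini-Hochberg over all tested genes in each comparison, and an adjusted p under 0.05 was called. The 3 comparisons share libraries. P-values measure the spread between these libraries, which are numbered replicates of 1 cell line. Scripts used Python 3.11.15 and scipy 1.17.1 and were tested on simulated data. Alternatives were other pseudocounts, filters and scalings, a replicate block, no variance trend and each library left out.

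The members and lists were chosen with earlier results of these data known. Named were all 10 members, the genes with the lowest and highest ratio in each list, and the 3 genes nearest to the members with the lowest and the highest RA to TR ratio. The replicate numbers were not used to pair the libraries in the main fit, because the labels do not say whether they do.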

Additional observations from a re-analysis of the deposited data

How the results depend on the processing

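Having 2 libraries each in TR and TA limits every test, and TR was the shallowest parameter. The fall of SRSF1 and SRSF2 from TR to RA, of SRSF2 from RA to TA, and of SRSF1 and SRSF2 from TR to TA was called in all 15 refits, as was the rise of SRSF4 from TR to TA. SRSF10 passed the filter through TR alone, so its calls are no sign of stability. Values come first with libraries centred on their median and then with a trimmed mean of log ratios. All-gene calls from TR to RA were 5066 and 4942 higher, members 3 and 3 higher and 3 and 3 lower, and the median of the members 0.022 and -0.011. Between RA and TA all genes were 2713 and 2615 higher and 1404 and 1479 lower, with a member median of 0.21 and 0.19. From TR to TA all genes were 5436 and 5283 higher and 5044 and 5172 lower, with 3 and 3 members lower and 0.33 and 0.28 as the median. Ratios that changed sign with these scalings were, from TR to RA, SRSF5 (0.33 and 0.29) and SRSF6 (0.17 and 0.13). Between RA and TA they were SRSF3 (0.35 and 0.33), SRSF5 (0.11 and 0.087), SRSF6 (0.32 and 0.30) and SRSF7 (0.44 and 0.42), and from TR to TA SRSF3 (0.22 and 0.17), SRSF5 (0.43 and 0.38) and SRSF6 (0.49 and 0.43). With at least 1 RPKM in each parameter, 10825 genes were tested and SRSF10 dropped out. Of the genes tested in this way, 3656 were lower from TR to RA and 4935 from TR to TA. Without the variance trend 0 members were higher and 2 lower from RA to TA.

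The labels give no source that libraries with the same replicate number share. The paper states that cells were split up for the assays, but not which libraries came from the same culture. Differences between replicates 1 and 2 correlated over 14305 genes at 0.0848 between TR and RA and at 0.00943 between TR and TA. Between RA and TA the correlation was -0.505. These values cannot decide whether libraries were paired, so the main fit used no pairs. A replicate block gave 2 members higher from TR to RA, and from RA to TA 109 genes higher and 1387 lower, 0 members higher and a ratio of -0.023 for SRSF9.

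With each library left out in turn, members called from TR to RA were 0 to 1 higher (0 without TR replicate 2) and 4 to 5 lower. Between RA and TA 200 to 1030 of all genes were higher and 1806 to 4225 lower, and 0 to 1 members were higher and 1 to 2 lower, with a member median from -0.58 to -0.13. From TR to TA 1 to 2 members were higher and 5 to 7 lower. Ratios that changed sign ran, from RA to TA, from -0.40 to 0.041 for SRSF6, from -0.33 to 0.22 for SRSF7 and from -0.063 to 0.39 for SRSF9, and from TR to TA from -0.37 to 0.43 for SRSF11. Leaving out SRSF10, or the 2 members that share exon bases with a gene of the table, was chosen after seeing the data. Causes were not tested.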

Other observations

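Among the other SR-family genes and SR protein kinases, named after their values were seen, several were low in RA relative to TR. TRA2B, a splicing activator with its own poison exon, was at 69.1 and 80.5 RPKM in TR and at 35.9, 32.8 and 26.8 RPKM in RA, a log2 ratio of -1.24 (limma, adjusted p = 0.00063). SRSF8, an intronless relative of SRSF2 with which it could share reads, was at 39.9 and 50.3 RPKM in TR and between 10.7 and 12.2 RPKM in RA, with a log2 ratio of -1.94 (limma, adjusted p = 2.7e-05). The nuclear kinases CLK1, CLK2 and CLK4 had ratios of -1.15 (limma, adjusted p = 0.0018), -1.95 (limma, adjusted p = 4.2e-05) and -0.59 (limma, adjusted p = 0.025). With libraries centred on their median, TRA2B, SRSF8 and CLK2 were still called lower, at -0.56, -1.27 and -1.28, while CLK1 (-0.48) and CLK4 (0.085) were not called. The TR libraries of these 5 genes were above all their RA libraries, and 48.0% of all tested genes were called lower in this comparison. CLK3 (-0.43, limma, adjusted p = 0.032) and PRPF4B (-0.54, limma, adjusted p = 0.031) were also called lower. With centred libraries they were at 0.24 and 0.14 and were not called. DYRK1A, SRPK1 and SRPK2 were not called with the values as deposited.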
